A study of Mus musculus with 12 samples.

Results

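The genes described here are 34 transporters, endocytic receptors and enzymes of the kidney's proximal tubule. They were chosen by symbol from a list, with earlier results of these data known. All 34 were listed in the tables of both arms, among 13475 genes that the arms shared, and no symbol had to be dropped. They were measured by RNA sequencing of isolated mouse glomeruli, a tissue that the proximal tubule lies outside of, in 12 libraries from C57BL/6 mice, 3 mice in each of 4 groups. The groups were controls and podocyte-specific DACH1 knockouts, untreated (the baseline arm, 10 weeks old) or injected with streptozotocin (STZ), which destroys insulin-producing beta cells, given daily for 5 days at 50 µg per g of body weight, the glomeruli being taken 10 days afterwards. All mice were perfused with magnetic beads to collect the glomeruli. The labels give neither the Cre line, nor the alleles of the controls (the STZ controls carry "hetN" and the baseline controls "Ctrl" in their titles), nor the age of the STZ mice, nor the sex of any mouse.

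The proximal tubule is the stretch of nephron that joins the glomerulus and takes back most of the filtered sodium, glucose, phosphate, amino acids and protein. Its cells pair transporters of the brush border with exits on the basolateral side, take up filtered protein through megalin and cubilin, secrete organic anions, and make glucose. HNF4A is a transcription factor that maintains this programme, and in mice several genes of the last segment are under the control of sex hormones.

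RefSeq promoters (GRCm38.p6) were matched for 29 of the 34 genes, with 38 promoters in all. The genes without an entry were Slc5a12, Slc7a13, Ttc36, Napsa and Slc5a2. The 250 bases before the start were searched on both strands for TATAAA, the TATA box. It stood in 6 of the 38 promoters (15.8%), against 12.4% of all 32851 mouse promoters of the same length. A match is a description of the letters and not a bound site. Printed here are the promoter of Miox, whose level varied with the rest of the set from library to library, and those of Acsm2, Cyp2e1 and Kap, whose level relative to the set also differed between libraries high in Xist and libraries high in Ddx3y. Only promoters with TATAAA are printed. Relative to the set, Pck1, Slc22a8, Slc34a3, Slc13a3 and Slc7a9 differed between those libraries too, without TATAAA in their windows. The difference was narrow for Slc34a3, Slc13a3 and Slc7a9, and the CPM of all these genes overlapped. G6pc and Slc3a1 hold TATAAA without such a difference. The printed promoters are written 5′ to 3′ on the strand of the gene, with TATAAA in capitals.
Miox: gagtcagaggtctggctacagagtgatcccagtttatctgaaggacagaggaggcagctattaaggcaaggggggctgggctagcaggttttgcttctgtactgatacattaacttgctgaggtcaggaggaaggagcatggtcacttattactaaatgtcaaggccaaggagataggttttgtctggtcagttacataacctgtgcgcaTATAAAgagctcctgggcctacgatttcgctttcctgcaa
Acsm2: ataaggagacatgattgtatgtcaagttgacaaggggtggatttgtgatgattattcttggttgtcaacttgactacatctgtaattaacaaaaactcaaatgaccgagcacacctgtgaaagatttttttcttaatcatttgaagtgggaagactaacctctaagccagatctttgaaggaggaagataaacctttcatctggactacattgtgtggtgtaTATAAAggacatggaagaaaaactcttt
Cyp2e1: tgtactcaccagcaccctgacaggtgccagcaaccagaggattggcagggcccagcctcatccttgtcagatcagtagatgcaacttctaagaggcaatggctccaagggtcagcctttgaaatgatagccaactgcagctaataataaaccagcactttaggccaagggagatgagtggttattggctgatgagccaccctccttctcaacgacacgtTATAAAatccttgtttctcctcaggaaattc
Kap: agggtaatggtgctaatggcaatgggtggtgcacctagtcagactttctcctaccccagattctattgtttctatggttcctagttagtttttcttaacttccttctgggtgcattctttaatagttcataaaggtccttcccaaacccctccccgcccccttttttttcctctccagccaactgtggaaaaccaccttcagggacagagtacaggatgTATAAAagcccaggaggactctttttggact

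These windows lie at chr15:89334223-89334472 (Miox), chr7:119554090-119554339 (Acsm2) and chr7:140763569-140763818 (Cyp2e1), all on the plus strand, and at chr6:133853668-133853917 on the minus strand (Kap). TATAAA begins 40 bases before the start in the Miox window, 28 in that of Acsm2, and 31 in those of Cyp2e1 and Kap. A gene with several starts was counted once per promoter, and another promoter of Acsm2 does not hold TATAAA.

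Totals were 2.26e+07 to 2.49e+07 counts per library at baseline and 6.61e+07 to 7.86e+07 after STZ. Dach1 did not overlap between the genotypes in either arm and was the lower one in knockouts, by edgeR's quasi-likelihood test with log2 fold changes of -1.48 (SE 0.23, adjusted p = 0.111) at baseline and -1.41 (SE 0.14, adjusted p = 0.00942) after STZ. The podocyte markers fixed as a check of the tissue were present in every group, their 7 genes summing to 17863 to 34878 CPM per library (counts scaled to library size, with TMM factors). In 5 libraries Xist, the RNA of the inactive X chromosome, was above the Y-linked gene Ddx3y (45.9 to 145 CPM against 5.13 to 6.78), and in the other 7 Ddx3y was above Xist (144 to 194 CPM against 0.462 to 1.44). The 5 were baseline control replicates 1 and 2, baseline knockout replicates 1 and 2, and STZ knockout replicate 2. The arms were deposited with separate gene lists, depths and mixes of these libraries, so a difference between arms and a difference made by STZ cannot be told apart.

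The proximal tubule genes made up a small share of each library, and the groups overlapped in it. They held 0.435%, 0.852% and 0.670% of all counts in the baseline controls and 0.286%, 1.27% and 3.06% in the baseline knockouts. After STZ they held 0.320%, 0.582% and 1.60% in the controls and 1.40%, 0.428% and 0.403% in the knockouts. The exact binomial 95% interval of each share was at most 0.00709 percentage points to either side, which covers counting error only. The group means were 0.652 ± 0.209% (SD, n = 3) and 1.54 ± 1.40% at baseline and 0.836 ± 0.679% and 0.744 ± 0.568% after STZ, for controls and knockouts in turn. In these bulk libraries a smaller number of proximal tubule cells and less RNA per cell cannot be told apart.

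**Figure D1:**
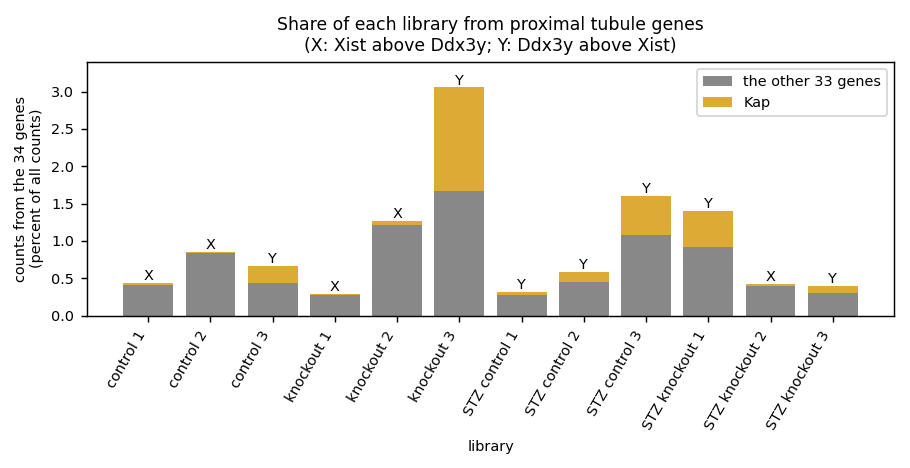
Percent of all counts in each library (vertical axis) that came from the 34 genes, with Kap drawn in yellow and the other 33 genes in grey; the letter above a bar says whether Xist (X) or Ddx3y (Y) was higher. Baseline knockout replicate 3 stands highest at 3.06%, of which Kap alone made 45.3%, and replicate 1 of the same group stands lowest at 0.286%.

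Kap, the kidney androgen-regulated protein gene, took from 2.14% (baseline control replicate 2) to 45.3% (baseline knockout replicate 3) of the counts of the 34 genes. Without the 3 genes of most counts, Kap, Slc34a1 and Acsm2, the share of the remaining 31 was 0.243% to 1.25% in the baseline knockouts and 0.348% to 0.691% in the baseline controls. Baseline knockout replicates 1 and 3 were again the lowest and the highest of their arm.

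Most of the 34 genes were high and low in the same libraries. The mean log2 CPM of the 34 was 6.19, 7.07 and 6.38 in the baseline controls, 5.505, 7.67 and 8.32 in the baseline knockouts, 5.81, 6.53 and 7.77 in the STZ controls, and 7.55, 6.23 and 6.00 in the STZ knockouts. At baseline, knockout replicate 1 was the lowest of the 6 libraries for 26 of the 34 genes, and knockout replicate 3 or 2 was the highest for 20 and 13. After STZ, control replicate 1 was the lowest for 21, and control replicate 3 or knockout replicate 1 was the highest for 23 and 10. The median gene of the 34 spanned 2.84 on the log2 CPM scale from its lowest to its highest baseline library and 2.11 among the STZ libraries, whereas the median over all 13475 genes was 0.53 and 0.58. At baseline 33 of the 34 spanned more than the 90th percentile of all genes (1.53), and after STZ 32 did (1.42). The exception in both arms was Dab2, and after STZ also Slc13a3.

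**Figure D2:**
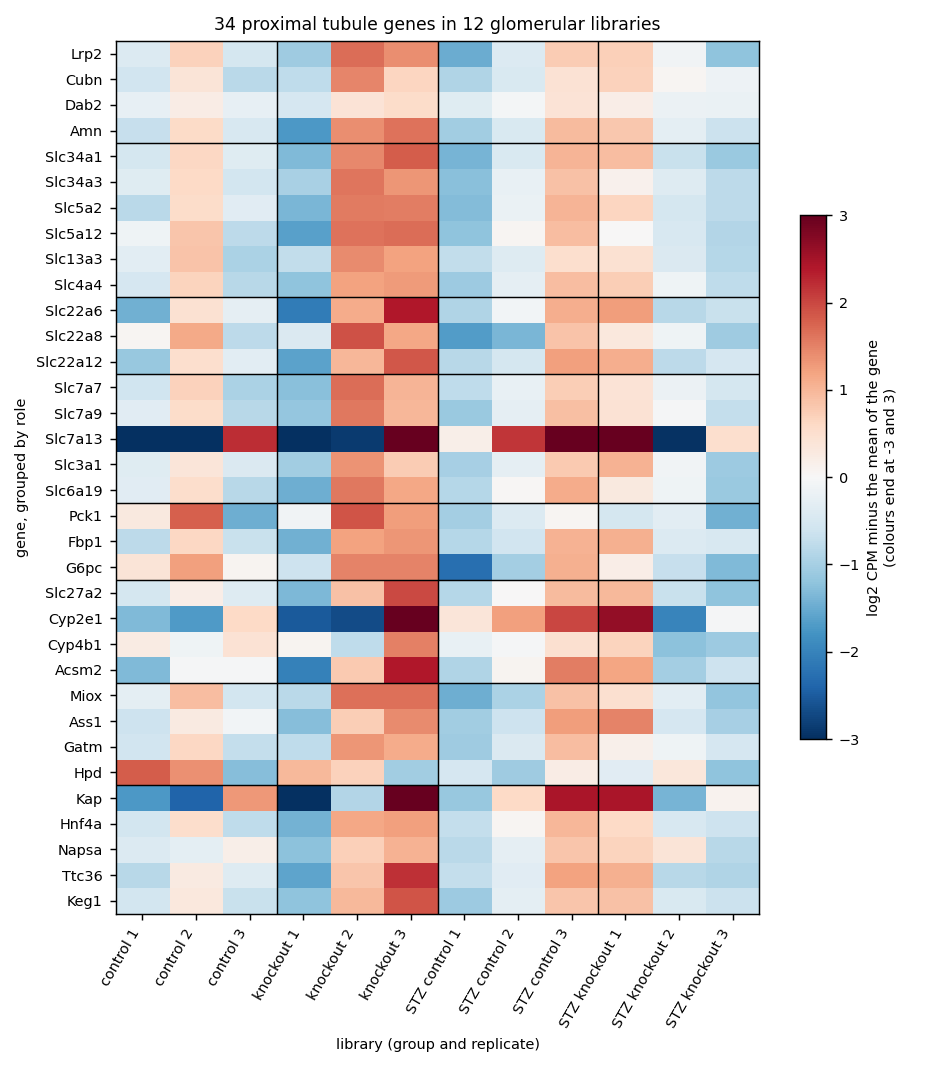
Log2 CPM of the 34 genes (rows, grouped by role with lines between the roles) in the 12 libraries (columns), each less the gene's own mean over the libraries; red is above and blue below that mean. Baseline knockout replicates 2 and 3, STZ control replicate 3 and STZ knockout replicate 1 are red for most rows, while Slc7a13, Cyp2e1, Kap and Hpd break the pattern.

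Lrp2 encodes megalin, the large endocytic receptor of the brush border (chromosome 2, 69424335 to 69586029, GRCm38.p6). It stood at 208, 447 and 191 CPM in controls and 133, 887 and 730.4 in knockouts at baseline, and 98.8, 209.6 and 471 in controls and 455, 259 and 120.5 in knockouts after STZ. In each arm the knockouts and controls overlapped, and baseline knockout replicates 1 and 2 were 6.69-fold apart. Cubn, cubilin, the receptor that works with megalin, was at 59.4, 115 and 50.6 CPM in baseline controls, 51.9, 244 and 139 in baseline knockouts, 47.2, 64.97 and 119 in controls given STZ and 143, 92.3 and 79.1 in knockouts given it. Amn, amnionless, which carries cubilin to the membrane, followed the common course, at 14.3, 34.5 and 16.4 CPM in baseline controls, 6.97, 60.9 and 71.4 in baseline knockouts, 11.2, 16.9 and 44.6 in controls given STZ and 40.6, 18.8 and 14.7 in knockouts given it. Its departure from the other genes was among the 5 smallest. Dab2, the adaptor that links megalin to clathrin and is made by other cell types as well, spanned only 2.08-fold at baseline and 1.71-fold after STZ, from 159 to 329.8 CPM and from 175 to 299 CPM.

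Among the transporters of ions, sugar and organic acids, Slc34a1, the main sodium-phosphate cotransporter of the brush border (chromosome 13, 55399622 to 55414695), was at 433, 959 and 479 CPM in controls and 249, 1676 and 2171 in knockouts at baseline, and 236, 456 and 1258 in controls and 1177, 392 and 289 in knockouts after STZ. Baseline knockout replicate 3 was 8.71-fold above replicate 1 of the same group. Slc34a3, a second phosphate cotransporter, was at 10.1, 19.7 and 8.86 CPM in baseline controls, 6.66, 39.5 and 32.9 in baseline knockouts, 5.49, 11.1 and 23.9 in controls given STZ and 14.3, 10.05 and 7.57 in knockouts given it. Slc5a2, the sodium-glucose cotransporter SGLT2 that recovers most filtered glucose and is the target of gliflozin drugs, was at 29.7, 76.9 and 41.5 CPM in baseline controls, 20.3, 155 and 152 in baseline knockouts, 21.3, 45.7 and 105 in controls given STZ and 81.2, 36.4 and 30.3 in knockouts given it. Its baseline knockouts held both the lowest and the 2 highest values of the arm. Slc5a12, a sodium-coupled lactate transporter, ran from 30.6 to 303 CPM at baseline, both in knockouts. Slc13a3, a dicarboxylate transporter, and Slc4a4, the basolateral sodium bicarbonate cotransporter, spanned 5.14-fold and 5.64-fold at baseline and 2.56-fold and 4.00-fold after STZ.

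The organic anion transporters split by library. Slc22a6 (OAT1), the basolateral importer of organic anions, was at 44.9, 168 and 102 CPM in controls and 28.6, 264 and 648 in knockouts at baseline, and 65.97, 117 and 261 in controls and 292, 69.3 and 77.1 in knockouts after STZ. Slc22a8 (OAT3), which lies next to it on chromosome 19 and shares many substrates, was at 92.3, 194 and 51.2 CPM in controls and 65.6, 332 and 198 in knockouts at baseline, and 27.4, 34.04 and 160.2 in controls and 109, 80.6 and 42.1 in knockouts after STZ. Baseline knockout replicate 3 was the highest for Slc22a6, whereas replicate 2 was the highest for Slc22a8. Slc22a12, the urate exchanger URAT1, followed Slc22a6, with 46.7, 281 and 516 CPM in the baseline knockouts and 64.6, 201 and 114 in the controls.

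Of the amino acid transporters, Slc3a1 and Slc7a9 encode the heavy and light subunits of the brush-border cystine transporter. Slc3a1 was at 33.4, 55.1 and 31.7 CPM in baseline controls, 20.8, 109 and 72.4 in baseline knockouts, 21.5, 35.7 and 73.8 in controls given STZ and 88.6, 40.2 and 20.2 in knockouts given it, and Slc7a9 at 16.6, 30.9 and 11.8 CPM in baseline controls, 9.496, 63.1 and 42.2 in baseline knockouts, 9.74, 17.4 and 39.4 in controls given STZ and 28.5, 20.7 and 12.8 in knockouts given it. Both were highest in baseline knockout replicate 2. Slc6a19, the main neutral amino acid transporter, and Slc7a7, a basolateral exchanger of cationic amino acids, had the same highest library, at 123 and 146 CPM. Slc7a13, a cystine and aspartate transporter of the last segment that also pairs with Slc3a1, had another pattern. Its levels were 1.04, 1.31 and 53.6 CPM in controls and 1.09, 1.600 and 189 in knockouts at baseline, and 13.1, 51.6 and 114 in controls and 132, 1.48 and 16.6 in knockouts after STZ. The 5 libraries at 1.04 to 1.60 CPM were those with Xist above Ddx3y, and they were set apart from the other 7 at 13.1 to 189 CPM.

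The enzymes of glucose production were Pck1, which makes phosphoenolpyruvate, Fbp1, which removes a phosphate from fructose bisphosphate, and G6pc, which releases free glucose. Pck1 was at 394, 1113 and 116 CPM in controls and 299, 1175 and 768 in knockouts at baseline, and 157, 242 and 331 in controls and 222, 256 and 119 in knockouts after STZ. All 3 STZ knockouts were below all 3 baseline knockouts. Fbp1 was the gene closest to the common course of the set, at 88.3, 232 and 94.7 CPM in baseline controls, 55.5, 351 and 377 in baseline knockouts, 84.4, 102 and 310.3 in controls given STZ and 316, 114 and 109 in knockouts given it. G6pc was at 81.8, 149 and 66.4 CPM in baseline controls, 40.8, 176 and 176 in baseline knockouts, 13.2, 30.9 and 133 in controls given STZ and 72.2, 38.8 and 25.2 in knockouts given it, and its lowest library, STZ control replicate 1, was 10.05-fold below STZ control replicate 3.

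Among enzymes of lipids and foreign compounds, Slc27a2, which activates and imports fatty acids, ran from 121 to 1231 CPM at baseline, again both in knockouts. Acsm2, a medium-chain acyl-CoA synthetase, was at 166, 409 and 403 CPM in controls and 102, 714 and 2185 in knockouts at baseline, and 223, 437 and 1206 in controls and 952, 206 and 269 in knockouts after STZ. Baseline knockout replicate 3 stood 21.5-fold above replicate 1. Cyp2e1, a cytochrome P450 that oxidises ethanol and other small molecules, was at 27.3, 20.97 and 103 CPM in controls and 11.9, 10.6 and 729.5 in knockouts at baseline, and 87.7, 160.1 and 276 in controls and 426, 17.4 and 67.1 in knockouts after STZ. As with Slc7a13, the 5 libraries with Xist above Ddx3y (10.6 to 27.3 CPM) did not overlap the other 7 (67.1 to 729.5 CPM). Cyp4b1, another cytochrome P450, was among the more level genes, at 562, 435 and 642 CPM in baseline controls, 502, 282 and 1361 in baseline knockouts, 407, 460.4 and 666 in controls given STZ and 757, 204 and 223 in knockouts given it. Its lowest baseline library was knockout replicate 2, in which most of the other genes were high.

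Of the enzymes of amino acids and inositol, Miox, which opens the inositol ring, was at 225, 517 and 188 CPM in baseline controls, 156, 855 and 862 in baseline knockouts, 99.4, 141 and 505 in controls given STZ and 379, 219.9 and 119.7 in knockouts given it. Ass1, which makes argininosuccinate for arginine synthesis, and Gatm, the first enzyme of creatine synthesis, spanned 6.45-fold and 4.24-fold at baseline. Hpd, of tyrosine breakdown, did not follow the set, at 34.6, 25.3 and 4.06 CPM in controls and 19.1, 15.9 and 4.76 in knockouts at baseline, and 6.89, 4.67 and 11.4 in controls and 7.69, 12.3 and 4.25 in knockouts after STZ. Baseline knockout replicate 3, in which 20 of the 34 genes peaked, had one of the lowest Hpd levels, and baseline control replicate 1 had the highest. The 5 libraries with Xist above Ddx3y (12.3 to 34.6 CPM) lay above the other 7 (4.06 to 11.4 CPM).

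The last 5 genes are a transcription factor and 4 of other roles. Hnf4a, the factor, kept close to the common course, at 60.6, 127 and 52.1 CPM in baseline controls, 32.9, 198 and 208 in baseline knockouts, 53.8, 91.7 and 176 in controls given STZ and 133, 62.9 and 57.4 in knockouts given it. Kap was at 279, 175 and 2274 CPM in controls and 88.9, 496 and 14206 in knockouts at baseline, and 418, 1399 and 5046 in controls and 5009, 352 and 985 in knockouts after STZ. Baseline knockout replicate 3 was 28.6-fold above replicate 2, although these 2 libraries were within 1.5-fold of each other for 17 of the 34 genes. Keg1 and Ttc36 peaked in baseline knockout replicate 3, at 748 and 226 CPM. Napsa, the aspartic protease napsin A, ran from 81.5 to 392 CPM at baseline. On the opposite strand, exons of other genes overlap those of 11 of the 34 (Cubn, Slc34a1, Slc5a2, Slc22a12, Slc27a2, Slc7a7, Slc3a1, Napsa, Ttc36, Keg1 and Dab2), and whether counting used strand is not given in the sources used here, so reads of such pairs may be mixed.

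Per exon length, as RPKM (CPM divided by the exon length in kilobases), the baseline controls ranked Kap first at 1286 ± 1673 (SD, n = 3), a level set by replicate 3. Cyp4b1 came next at 242 ± 46.3, followed by Miox at 188 ± 109, Pck1 at 158 ± 150.1 and Slc34a1 at 133 ± 62.4. Neighbours in this order did not differ beyond their spread. Lrp2 ranked 24th in RPKM at 16.9 ± 8.56, with 16701 exonic bases. The lowest were Slc7a9 at 7.38 ± 3.72, Slc34a3 at 5.46 ± 2.501 and Cubn at 5.03 ± 2.35 RPKM, again within their spread. In the other groups Kap stayed first, at 6973 ± 11366 RPKM in baseline knockouts, 3236 ± 3449 in controls and 2992 ± 3573 in knockouts after STZ, with an SD above its mean in each.

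The first comparison asked whether the loss of DACH1 in podocytes changed these genes at baseline. None of the 34 passed edgeR's quasi-likelihood test at an adjusted p of 0.05 over all genes, where 0.23% of 13475 genes did. No member had an unadjusted p under 0.05 (6.92% of all genes did), DESeq2 called 0, and no member had groups that did not overlap (11.8% of all genes). The fitted log2 fold changes had 1 sign in all but Hpd. They were above 0 for 33 of the 34 (52.4% of all genes), with a median of 1.01, against a median of 0.01 over all genes. Most of the 34 were high and low in the same libraries, so their signs are not independent of each other. The 5 of smallest p, none of which passed, were Keg1 at 1.25 (SE 0.72, adjusted p = 0.802), Slc27a2 at 1.25 (SE 0.75, adjusted p = 0.802), Ttc36 at 1.403 (SE 0.85, adjusted p = 0.802), Acsm2 at 1.62 (SE 0.99, adjusted p = 0.802) and Cubn at 0.95 (SE 0.59, adjusted p = 0.802). For 4 of these 5, all but Cubn, knockout replicate 1 was below every control while replicates 2 and 3 were above every control. The median was 0.52 without knockout replicate 3 and 0.63 without knockout replicate 2, but 1.46 without knockout replicate 1 and 1.497 without control replicate 2. Without knockout replicate 1 the smallest adjusted p of a member was 0.109. With the mean of 53 other proximal tubule genes as a covariate, an alternative added after the data were seen, the median was -0.06 and 10 of 34 were above 0. Those genes had the same shift, with medians of 0.97 over the transporters and 0.95 over the enzymes. A median near 0 under this covariate therefore follows from its make-up. The fit takes out any difference that the 34 share with them, whatever its source.

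After STZ the same comparison gave values on both sides of 0. None of the 34 passed edgeR's test, where 1.07% of 16291 genes did, none had an unadjusted p under 0.05 (9.08% of all genes), DESeq2 called 0, and no member had groups that did not overlap (14.9% of all genes). The median log2 fold change was -0.07, with 10 of 34 above 0 (46.6% of all genes), against -0.02 over all genes. The smallest p values, none passing, were those of Cubn at 0.45 (SE 0.37, adjusted p = 0.858), Slc5a12 at -0.57 (SE 0.503, adjusted p = 0.875), Slc6a19 at -0.51 (SE 0.53, adjusted p = 0.911), Pck1 at -0.28 (SE 0.36, adjusted p = 0.944) and Cyp4b1 at -0.38 (SE 0.52, adjusted p = 0.953). The sign of the median turned with the library left out. Without control replicate 3 the median was 0.59 and 32 of 34 were above 0, and without knockout replicate 1 it was -0.58 and 2 of 34 were above 0. Slc5a12 and Slc6a19 also turned, to 0.03 and 0.13, without control replicate 3.

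In controls, the STZ and baseline libraries overlapped in each of these genes. None of the 34 passed edgeR's test, where 0.512% of 13475 genes did, none had an unadjusted p under 0.05 (14.9% of all genes), DESeq2 called 0, and no member had groups that did not overlap (20.3% of all genes). The median log2 fold change was 0.16, with 26 of 34 above 0 (58.7% of all genes), against 0.05 over all genes. This median was -0.54 without STZ control replicate 3 and 0.61 without baseline control replicate 2. The smallest p values belonged to Hpd at -1.48 (SE 0.73, adjusted p = 0.375), Pck1 at -1.15 (SE 0.71, adjusted p = 0.495), Cyp2e1 at 1.79 (SE 1.54, adjusted p = 0.633), Acsm2 at 0.93 (SE 0.97, adjusted p = 0.702) and G6pc at -0.75 (SE 0.796, adjusted p = 0.707). Baseline controls included 2 libraries with Xist above Ddx3y and the STZ controls none. With that difference as a covariate Hpd was at 0.19, Cyp2e1 at -0.92 and Acsm2 at -0.17, each with the other sign.

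In knockouts all 34 genes had lower fitted levels after STZ, while 50.6% of all genes had higher ones. These signs too are not independent of each other. Pck1 was the 1 gene of the 34 whose groups did not overlap. Its 3 STZ knockouts (119 to 256 CPM) lay below its 3 baseline knockouts (299 to 1175 CPM), as did 9.59% of all genes. None of the 34 passed edgeR's test, where 1.87% of 13475 genes did, and Pck1 was the 1 member with an unadjusted p under 0.05 (16.1% of all genes). Pck1 was at -1.91 (SE 0.73, adjusted p = 0.23) by edgeR and at -1.92 by DESeq2 (adjusted p = 0.0479), which called this member alone. Over the other alternatives of edgeR its adjusted p ran from 0.155 to 0.577. The next were Slc34a3 at -1.31 (SE 0.65, adjusted p = 0.357), Slc5a12 at -1.54 (SE 0.77, adjusted p = 0.36), G6pc at -1.53 (SE 0.81, adjusted p = 0.387) and Miox at -1.38 (SE 0.77, adjusted p = 0.412). The median over the 34 was -0.95, against 0.00 over all genes, and it was -0.47 without baseline knockout replicate 3, -1.60 without STZ knockout replicate 1, and -0.12 with the 53 other proximal tubule genes as a covariate. Here too that covariate takes out whatever the 34 share with those genes.

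**Figure D3:**
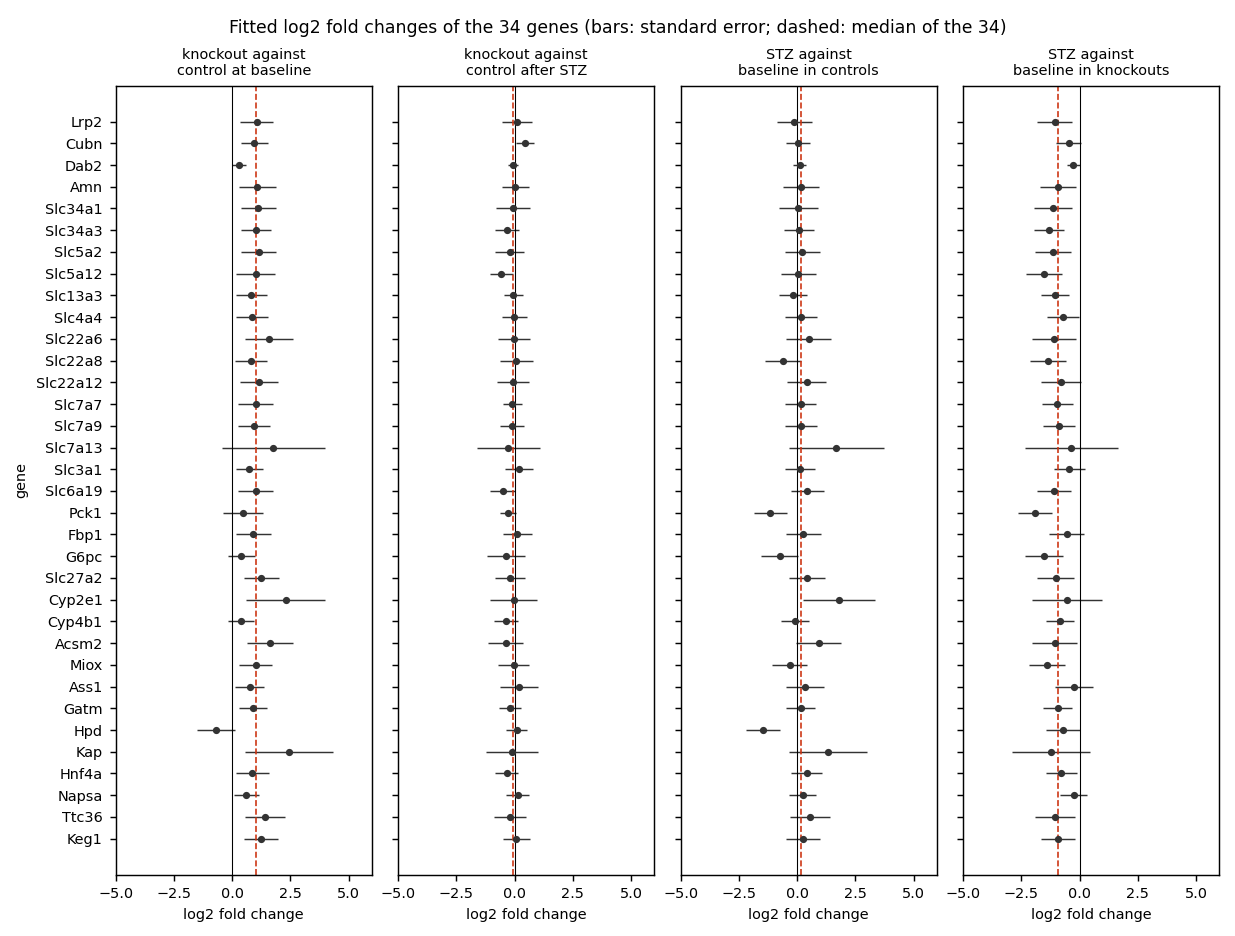
Fitted log2 fold change (horizontal axis) of each of the 34 genes (rows) with its standard error in 4 comparisons, the dashed line marking the median of the 34. At baseline 33 of 34 points lie right of 0, in knockouts after STZ all 34 lie left of it, and no gene passed an adjusted p of 0.05 in any panel.

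The difference between the STZ effects of the genotypes, fitted as an interaction, had a median of -1.08 over the 34 genes, against -0.03 over all genes. Of the 34, 1 was above 0, against 44.9% of all genes. It uses the same 12 libraries as the comparisons above and is not independent of them. None of the 34 passed edgeR's test (0.00742% of 13475 genes did), none had an unadjusted p under 0.05 (3.68% of all genes), and DESeq2 called 0. The genes of smallest p were Slc6a19 at -1.53 (SE 1.01, adjusted p = 0.975), Slc34a3 at -1.38 (SE 0.91, adjusted p = 0.975), Slc5a12 at -1.59 (SE 1.07, adjusted p = 0.975), Acsm2 at -2.01 (SE 1.38, adjusted p = 0.975) and Ttc36 at -1.61 (SE 1.21, adjusted p = 0.975). The median interaction was -0.40 without STZ control replicate 3 and -1.64 without STZ knockout replicate 1. It was 0.08 with the 53 other proximal tubule genes as a covariate, which takes out whatever the 34 share with those genes.

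Other proximal tubule genes, listed for comparison and not among the 34, were high and low in the same libraries. Of 23 further transporters and 30 to 32 further enzymes tested, none passed edgeR's test in any of the 5 comparisons, nor did any of 11 regulators and scaffolds. At baseline the knockout medians were 0.97 over the transporters (22 of 23 above 0), 0.95 over the enzymes (27 of 30) and 0.45 over the regulators and scaffolds (9 of 11). Slc13a1, the sulfate cotransporter, was at 37.6, 76.97 and 27.5 CPM in baseline controls, 26.8, 139 and 138 in baseline knockouts, 24.5, 40.8 and 94.6 in controls given STZ and 87.8, 57.7 and 67.7 in knockouts given it. Slc2a2, the basolateral glucose exit GLUT2, was at 15.3, 34.3 and 19.96 CPM in baseline controls, 11.02, 53.4 and 77.4 in baseline knockouts, 17.2, 25.4 and 47.6 in controls given STZ and 39.3, 26.2 and 17.9 in knockouts given it. Of 18 marker genes of later tubule segments, the median gene spanned 1.46 on the log2 CPM scale at baseline and 1.49 after STZ, against 2.84 and 2.11 for the 34. Of the 18, 1 spanned at least as much as the median gene of the 34 at baseline, and 3 did after STZ. The widest at baseline were Calb1 and Slc12a3, both highest in knockout replicate 3. Calb1, the calcium-binding calbindin of the distal tubule, was at 183, 117 and 49.1 CPM in baseline controls and 73.5, 322 and 463 in baseline knockouts, a 9.44-fold span. Slc12a3, the thiazide-sensitive sodium chloride cotransporter, was at 173, 149 and 56.9 CPM in baseline controls and 78.2, 333 and 366 in baseline knockouts, a 6.43-fold span. At baseline all of the 18 but Umod, Slc12a1 and Cldn16 were highest in knockout replicate 3 or 2, where most of the 34 also peaked. These exceptions were highest in control replicate 3. After STZ all but Cldn16 were highest in control replicate 3 or knockout replicate 1, again as most of the 34 were. The sum of the 18 was mostly Umod, the uromodulin of the thick ascending limb, and Egf (35.5% and 28.1% of it), which spanned 2.01-fold and 1.70-fold at baseline. The 18 summed to 2633 to 3470 CPM in the baseline controls and 2113 to 4022 in the baseline knockouts, while the 34 proximal tubule genes summed to 4389 to 8185 and 2922 to 31332. After STZ the 18 summed to 1679 to 3558 CPM in controls and 1836 to 3558 in knockouts. None of the 18 passed in any of the 5 comparisons, and the part of tubule tissue in the results above was not tested.

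Departure from the common course was measured for each gene as its log2 CPM less the median of the other 33 in the same library. The SD of this departure over the 12 libraries was largest for Slc7a13 (2.74), Cyp2e1 (1.89), Kap (1.80), Hpd (1.39) and Cyp4b1 (0.93). It was smallest for Fbp1 (0.17), Hnf4a (0.19), Keg1 (0.19), Slc5a2 (0.22) and Amn (0.22). CPM did not overlap between the 5 libraries with Xist above Ddx3y and the 7 with Ddx3y above Xist for 3 of the 34 (Slc7a13, Cyp2e1 and Hpd), against 0.816% of 13475 genes. Kap ran from 88.9 to 496 CPM, median 279, in the 5 and from 418 to 14206, median 2274, in the 7. Departures, which take out the common course, did not overlap for 9 of the 34, against 0.594% of 13475 genes measured from the same median. For a gene that does not follow the 34, taking off their median adds its swings between libraries. The shares of all genes given for departures are therefore not a like measure for the 34. Slc7a13, Kap, Cyp2e1 and Acsm2 were lower in the 5 libraries (0.378% of all genes), and Pck1, Slc22a8, Slc34a3, Slc13a3 and Slc7a9 were higher (0.215% of all genes). Some were barely apart. The lowest departure of the 5 libraries and the highest of the 7 were 0.0748 and 0.0700 for Slc7a9. They were 0.201 and 0.196 for Slc13a3, and 0.155 and 0.120 for Slc34a3. In mice Kap, Slc7a13 and Cyp2e1 are known to be higher in the male kidney.

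**Figure D4:**
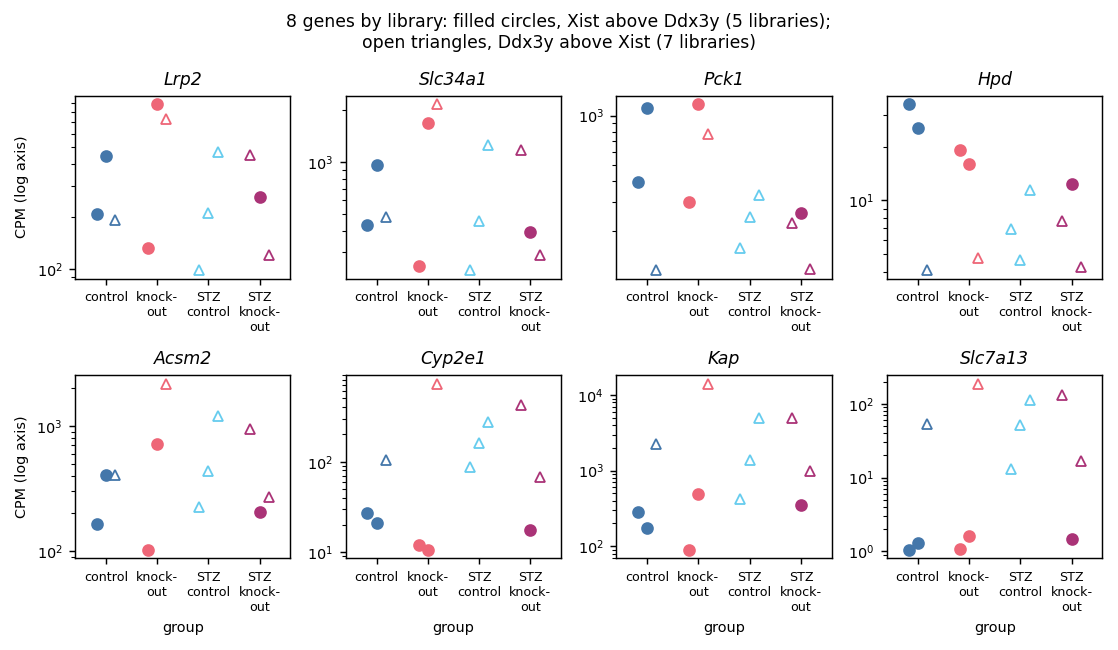
CPM (log axis) of 8 genes in the 4 groups, 1 symbol per library: filled circles for the 5 libraries with Xist above Ddx3y and open triangles for the 7 with Ddx3y above Xist. In Slc7a13 and Cyp2e1 every circle lies below every triangle and in Hpd above, while Lrp2 and Slc34a1 show no such order.

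A term for Xist above Ddx3y, added to the fit of the 4 groups after the data were seen, was tested over all genes. Of the 34, 1 passed edgeR's test, against 0.0668% of 13475 genes. Slc7a13 was lower in the 5 libraries, at -6.11 (SE 0.83, adjusted p = 0.0423). The next were Cyp2e1 at -4.22 (SE 0.82, adjusted p = 0.282), Hpd at 1.91 (SE 0.41, adjusted p = 0.384), Kap at -4.05 (SE 0.92, adjusted p = 0.475) and Cyp4b1 at -1.18 (SE 0.399, adjusted p = 0.817), none of which passed. Slc7a13 lost its call when any of 9 of the 12 libraries was left out, and DESeq2 called Slc7a13, Kap, Cyp2e1 and Hpd. With the mean of the 53 other proximal tubule genes as a covariate, 7 of the 34 passed, against 0.527% of all genes. Slc7a13 at -5.22 (SE 0.54, adjusted p = 0.00253), Kap at -3.05 (SE 0.53, adjusted p = 0.0459) and Acsm2 at -0.86 (SE 0.11, adjusted p = 0.0125) were lower in the 5 libraries. Pck1 at 1.498 (SE 0.26, adjusted p = 0.0467), Slc6a19 at 0.76 (SE 0.12, adjusted p = 0.0321), Slc7a9 at 0.74 (SE 0.13, adjusted p = 0.0472) and Slc4a4 at 0.52 (SE 0.08, adjusted p = 0.029) were higher. This count was 0 without baseline control replicate 3 and 1 to 6 without any other library. Without the covariate its 53 genes were mostly lower in the 5 libraries, with medians of -0.34 over 23 transporters and -0.35 over 30 enzymes. The values with the covariate are relative to them, and the median of the 34 moved from -0.21 to 0.24. Genes that follow the covariate also lose spread (SE of Slc4a4 0.66 without it), so the share of all genes is not a like measure. The mice of the arms differed in Xist and Ddx3y, with 4 of 6 libraries at baseline and 1 of 6 after STZ having Xist above Ddx3y.

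Segments of the proximal tubule were compared within each library. Of the 34 genes, 9 lean to the early segments (Slc5a2, Slc5a12, Slc6a19, Slc4a4, Slc34a1, Slc34a3, Slc22a6, Slc22a8 and Slc7a7), and a list of 10 late-segment genes holds Slc7a13 and 9 that are not among the 34. Their difference, as mean log2 CPM of the early less the late genes, was 2.45, 3.45 and 1.17 in the baseline controls and 2.27, 3.85 and 2.51 in the baseline knockouts. After STZ it was 1.89, 1.75 and 2.44 in the controls and 2.08, 2.44 and 1.79 in the knockouts. The group means were 2.36 ± 1.15 and 2.88 ± 0.85 at baseline and 2.03 ± 0.37 and 2.10 ± 0.32 after STZ (SD, n = 3), so the groups overlapped. The lowest and highest values of the baseline arm were control replicate 3, with Ddx3y above Xist, and knockout replicate 2, with Xist above Ddx3y. Late genes differed among themselves. Slc5a1, the sodium-glucose cotransporter SGLT1, was at 19.98, 32.5 and 39.3 CPM in baseline controls, 22.1, 35.03 and 29.3 in baseline knockouts, 14.6, 18.8 and 19.9 in controls given STZ and 24.99, 18.4 and 17.99 in knockouts given it, and Cyp7b1, a steroid hydroxylase, was at 0.953, 0.809 and 14.04 CPM in baseline controls, 0.523, 0.505 and 17.9 in baseline knockouts, 6.16, 18.5 and 15.6 in controls given STZ and 20.8, 1.002 and 8.58 in knockouts given it. Cyp7b1 also passed edgeR's test for the Xist and Ddx3y term, at -4.29 (SE 0.43, adjusted p = 0.00451). Without Slc7a13, Slc7a12 and Slc22a7, late genes known to differ between the sexes, the means were 1.85 in baseline controls, 2.35 in baseline knockouts, 1.60 in STZ controls and 1.65 in STZ knockouts. Without Cyp7b1 as well, an alternative added after the data were seen, they were 1.34, 1.74, 1.45 and 1.34, and STZ controls were then above baseline controls.

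**Figure D5:**
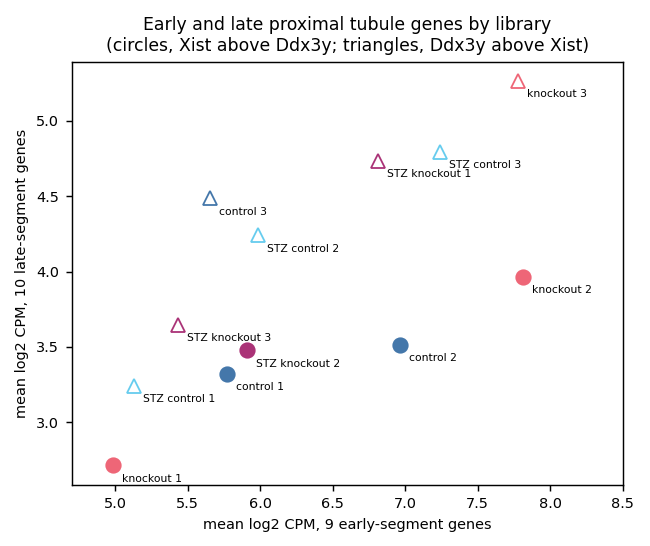
Mean log2 CPM of the 9 early-segment genes (horizontal axis) against that of the 10 late-segment genes (vertical axis), 1 symbol per library, circles for Xist above Ddx3y and triangles for Ddx3y above Xist. Baseline knockout replicates 2 and 3 have nearly the same early mean, 7.81 and 7.78, but late means of 3.96 and 5.27. The late genes do not differ as a whole. Slc7a13 (1.60 and 189 CPM) and Cyp7b1 (0.505 and 17.9 CPM) differ most. Slc1a1, Slc5a8, Atp11a and Slc22a7 are also higher in replicate 3, and Slc5a1, Slc15a2, Slc22a13 and Slc7a12 are lower.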

How the data were processed

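RNA of isolated glomeruli was sequenced in 12 libraries of 4 groups, with 3 different mice in each per the labels. The authors deposited estimated counts per gene symbol, 1 table per library, not scaled to depth, with 10.5% to 11.5% of values ending in 0.5. These were rounded, and 18 blank values were taken as 0. BWA and mm10 are named, without a role, per the submitters' processing notes, while the counting tool, annotation and strand setting were not given in the sources used here. Library totals ranged from 2.26e+07 to 2.49e+07 (baseline arm) and from 6.61e+07 to 7.86e+07 (STZ arm). No replicate pair agreed within sampling noise.

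Genes passing filterByExpr were scaled by TMM and tested with edgeR 4.0.16's quasi-likelihood test (R 4.3.3, limma 3.58.1), Benjamini-Hochberg adjusted over all genes and called at 0.05. Genotypes were compared within an arm, and STZ and the interaction over 12 libraries on 13475 shared genes. Printed CPM are scaled over the 12 libraries, log2 CPM use a prior count of 2, and RPKM use merged GENCODE M21 exons. The steps were tested on simulated data. Alternatives were DESeq2 1.42.0, no filter, scaling without tubule genes, covariates, and leaving out each library. The members and lists were chosen with earlier results of these data known. All members could be named. In each comparison those called, or else the 5 of smallest p, are given, as are the 5 with the largest and the 5 with the smallest departure.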

Additional observations from a re-analysis of the deposited data

How the results depend on the processing

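Depth limits little here: the gene of fewest counts, Slc7a13, had at least 24 counts in every library, while single mice of a group differed by several fold. The count of called members stayed at 0 under DESeq2, no filter, scaling without tubule genes, a term for Xist above Ddx3y, the other proximal tubule genes as a covariate and leaving out each replicate, in all 5 comparisons but 1. The exception was DESeq2 for STZ in knockouts, which called 1 (Pck1). The median interaction was 0.075 with the other proximal tubule genes as a covariate. With that covariate the baseline knockout values of Slc27a2, Ttc36 and Acsm2 were -0.043, -0.062 and -0.20, the other sign from the fit without it. Without STZ control replicate 3 the STZ knockout values of Slc5a12 and Slc6a19 turned to 0.032 and 0.13, and without control replicate 1 they were -0.96 and -0.87. With the Xist and Ddx3y term the STZ values in controls turned for Hpd (0.19), Cyp2e1 (-0.92) and Acsm2 (-0.17). The cause was not tested. For the Xist and Ddx3y term itself 7 members were called with the other proximal tubule genes as a covariate, 5 with the regulators and scaffolds as a covariate and 4 by DESeq2, and leaving out 1 library gave 0 to 1 without a covariate and 0 to 6 with the other proximal tubule genes. With that covariate the baseline libraries alone called 3. Without Slc7a13, Slc7a12 and Slc22a7 the early less late difference was 1.60 in STZ controls and 1.65 in STZ knockouts, and without Cyp7b1 too it was 1.45 and 1.34 there and 1.74 in baseline knockouts. No paired analysis was possible because the mice of the groups are different animals and the labels number no replicates; the numbers used here only name the libraries.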

Other observations

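Among genes that injured proximal tubule cells are known to make, Havcr1 (kidney injury molecule KIM-1) passed edgeR's test in 1 comparison, STZ against baseline in knockouts. There Havcr1 was the only 1 of 5 such genes tested to pass, where 1.87% of 13475 genes did. It was at 0.436, 0.589 and 0.317 CPM in the baseline knockouts and at 1.19, 4.05 and 10.6 CPM in the STZ knockouts, a log2 fold change by edgeR of 3.55 with an SE of 0.70 and an adjusted p of 0.036. The controls stood at 0.390, 0.424 and 0.414 CPM at baseline and at 0.658, 1.02 and 0.990 CPM after STZ. Baseline levels this low rest on few reads, and the log2 fold change is measured from them. The call was lost without any 1 baseline knockout, although the log2 fold change stayed at 3.33 to 3.76 (adjusted p = 0.0856 to 0.145), and without STZ knockout replicate 3 (2.54, adjusted p = 0.0937), and the interaction did not pass (adjusted p = 0.975). Arm and STZ cannot be told apart here either.

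Lcn2, the secreted lipocalin NGAL, was also highest in STZ knockout replicate 3, at 11.8 CPM, against 1.24 and 4.81 CPM in the other STZ knockouts and 0.498 to 0.610 CPM in the baseline knockouts. The STZ controls were at 5.55, 0.582 and 1.01 CPM, so that replicate 1 lay above 2 of the 3 STZ knockouts. That library also had the highest Lyz2 (279 CPM) and C1qa (63.7 CPM), markers of macrophages, against 32.3 to 104 and 5.02 to 22.999 CPM in the STZ knockouts, and their part in the Lcn2 levels was not tested. The Lcn2 difference between STZ and baseline knockouts did not pass (3.42, SE 0.98, adjusted p = 0.111 by edgeR). Spp1, osteopontin, was at 342, 459.8 and 849 CPM in the STZ knockouts and at 246, 252 and 339.7 CPM in the STZ controls (log2 fold change 0.99, SE 0.34, adjusted p = 0.419 by edgeR). Clu, clusterin, was at 160.0, 145 and 198 CPM in the STZ knockouts and at 111, 127 and 138 CPM in the STZ controls (0.42, SE 0.15, adjusted p = 0.453 by edgeR). STZ knockout replicate 3 had the highest Havcr1, Lcn2, Spp1 and Clu of its group and the lowest mean log2 CPM of the 34 transporters and enzymes, 6.00. Vcam1, on the same list, did not follow them, at 20.9, 84.8 and 39.6 CPM in the STZ knockouts and 115, 46.1 and 18.1 CPM in the STZ controls. The list was read after its values were seen, and the relation was not tested.

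Acy3 and Acsm3, a deacetylase and an acyl-CoA synthetase among the other proximal tubule enzymes, were lower in the 5 libraries with Xist above Ddx3y once the other proximal tubule genes were a covariate (-1.64, SE 0.16, adjusted p = 0.00203 and -3.14, SE 0.49, adjusted p = 0.0264 by edgeR). Acsm3 was at 4.36 to 5.03 CPM in those 5 libraries and at 10.6 to 172 CPM in the other 7, without overlap. Slc6a18 and Ppara were higher in the 5 under the same fit (0.83, SE 0.12, adjusted p = 0.0222 and 0.80, SE 0.12, adjusted p = 0.0233 by edgeR). Acy3, Acsm3 and Slc6a18 are themselves among the 53 genes whose mean was the covariate, so their values are not independent of it. Without the covariate none of these genes passed edgeR's test.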
